A study of Mus musculus with 8 samples.

Results

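The TNF superfamily ligands and receptors were examined in bulk RNA-seq of tibialis anterior (TA) muscle. The 8 libraries were 4 from mdx5cv mice and 4 from wild-type (WT) mice, all 6 months old and of the C57/Bl6 strain. The mdx5cv mouse carries a mutation in Dmd, the dystrophin gene, and models Duchenne muscular dystrophy. No treatment was given in the labels, and neither the sex of the mice nor whether each library came from its own animal was stated there, so p-values measure the spread between these 8 libraries. Members were all genes whose symbol is Tnf, Lta, Ltb, Fas, Fasl, Cd40, Cd40lg or Ltbr, or starts with Tnfrsf or Tnfsf and a digit. This gave 40 of the 55401 genes in the table, of which 16 encode ligands, 23 encode receptors and 1, Tnfsf13os, is an antisense RNA.

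TNF superfamily ligands are trimeric proteins, made mostly by immune cells, that bind receptors on neighbouring cells or are cut free as soluble cytokines. The receptors carry no enzyme of their own. They recruit TRAF adaptors or, where they hold a death domain, TRADD and FADD, and so switch on NF-kappaB or caspase-8. In muscle the family is known for TNF itself, for TWEAK and its receptor Fn14 in atrophy and regeneration, and for the RANK and osteoprotegerin system that muscle shares with bone.

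Of the 40 members, 19 reached a mean of 10 normalized counts over the 8 muscles and were tested, namely 16 receptors, the ligands Tnfsf10 and Tnfsf12, and Tnfsf13os. A normalized count is the number of reads divided by the library's size factor. The other 21 members, 14 ligands and 7 receptors, lay under that mean and are given as reads. Each library held 13862559 to 14921057 reads in WT and 13175524 to 14502624 in mdx5cv. Dmd was lower in every mdx5cv muscle than in every WT muscle (6954 ± 857 normalized counts in WT and 3964 ± 388 in mdx5cv, mean ± SD, n = 4 each, limma log2 fold change -0.81, SE 0.12, adjusted p = 0.000177). Markers of mature fast fibers summed to 977749 to 1177760 normalized counts in WT and 682819 to 1054390 in mdx5cv, with all 6 markers read in both groups. Ckm (limma log2 fold change -0.75), Tnnt3 (-0.63) and Actn3 (-0.64) were lower at an adjusted p under 0.05, as were 20.1% of all genes. In each, every mdx5cv muscle lay below every WT muscle (19.8% of all genes). Acta1, Myh4 and Myh1 did not pass. With libraries scaled to equal totals, Tnnt3 and Actn3 no longer passed (adjusted p = 0.115 and 0.111).

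Several receptors were higher in mdx5cv muscle, while of the ligands only Tnfsf10 and Tnfsf12 could be tested and neither was called. Of the 16 receptors tested, 7 were higher in mdx5cv muscle at an adjusted p under 0.05 and a log2 fold change of at least 1 (limma on log2 of the normalized count + 1), which is 43.8% of them, against 10.3% of all 13677 genes tested that were called higher. Tnfrsf13b and Cd40 reached the minimum for a test only through mdx5cv (means of 3.59 and 5.74 normalized counts in WT), so this share is a description. The 7 were Tnfrsf11a, Tnfrsf13b, Tnfrsf1b, Tnfrsf23, Cd40, Tnfrsf14 and Tnfrsf22. No member was called lower by limma, by edgeR or by DESeq2, against 3.27% of all genes called lower by limma, and 2 members, Tnfsf10 and Tnfsf13os, were lower at an unadjusted p under 0.05. On the adjusted p alone, 8 members were higher and 0 lower, against 20.9% and 20.1% of all genes, and the eighth was Tnfrsf1a. The median log2 fold change was 0.91 over the 16 receptors, -0.19 over the 2 ligands and 0.00 over all genes tested. All 4 mdx5cv muscles lay above all 4 WT muscles in 8 of the 19 tested members (42.1%, against 20.3% of all genes), and below them in 2, Tnfrsf21 and Tnfsf13os (against 19.8%).

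**Figure D1:**
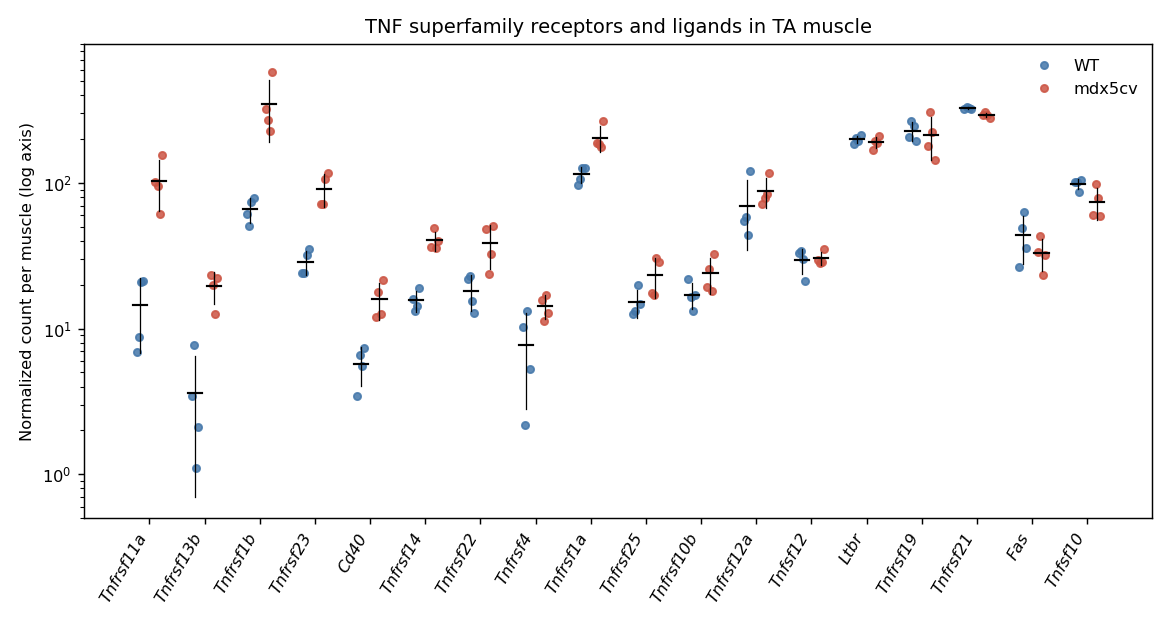
Normalized count in each TA muscle (y axis, log scale) of the 18 tested ligands and receptors (x axis, ordered by fold change), with WT in blue and mdx5cv in red. Points are single muscles, and black bars give the mean and SD of 4 muscles. From Tnfrsf11a to Tnfrsf22, and in Tnfrsf1a, the red points all lie above the blue ones.

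The RefSeq table of promoters held the 250 bases before a transcription start for 30 of the 40 members, and for 5 of the 7 receptors called higher. Those of the 4 receptors with the largest rises are printed so that their sequence can be read against their values. Capitals mark matches on either strand to the Sp1 motif GGGCGG, to the core of the PU.1 motif, which is GAGGAA, to the AP-1 motif, whose letters are TGANTCA, or to the NF-kappaB consensus, and no matches overlapped in these windows. All are from GRCm38.p6 and written 5′ to 3′ on the strand of the gene. Tnfrsf11a lies at chr1:105780473-105780722 on the plus strand, Tnfrsf1b at chr4:145246871-145247120 on the minus strand, Tnfrsf23 at chr7:143685876-143686125 on the minus strand and Tnfrsf13b at chr11:61126505-61126754 on the plus strand.
Tnfrsf11a: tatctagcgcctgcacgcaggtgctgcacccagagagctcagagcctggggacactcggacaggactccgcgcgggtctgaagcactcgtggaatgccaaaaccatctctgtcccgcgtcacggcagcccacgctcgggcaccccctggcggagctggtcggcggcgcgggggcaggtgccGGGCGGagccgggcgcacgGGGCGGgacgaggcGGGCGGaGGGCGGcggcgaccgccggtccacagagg
Tnfrsf1b: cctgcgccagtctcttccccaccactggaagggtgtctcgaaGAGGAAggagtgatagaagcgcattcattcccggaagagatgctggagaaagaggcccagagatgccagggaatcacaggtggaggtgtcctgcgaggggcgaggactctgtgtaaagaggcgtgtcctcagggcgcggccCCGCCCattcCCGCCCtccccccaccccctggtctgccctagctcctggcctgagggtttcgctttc
Tnfrsf23: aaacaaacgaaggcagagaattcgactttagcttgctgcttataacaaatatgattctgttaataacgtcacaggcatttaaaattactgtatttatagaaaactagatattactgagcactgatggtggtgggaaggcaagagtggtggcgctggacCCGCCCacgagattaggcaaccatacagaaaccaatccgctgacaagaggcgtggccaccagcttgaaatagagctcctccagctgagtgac
Tnfrsf13b: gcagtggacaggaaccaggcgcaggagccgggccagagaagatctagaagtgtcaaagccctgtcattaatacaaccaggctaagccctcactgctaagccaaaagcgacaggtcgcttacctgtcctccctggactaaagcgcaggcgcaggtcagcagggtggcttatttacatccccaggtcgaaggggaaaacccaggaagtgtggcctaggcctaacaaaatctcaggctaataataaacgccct

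The 4 windows differed in composition. Tnfrsf11a held 31 CpG and 73.6% G or C, with 4 Sp1 matches at 69, 50, 36 and 29 bases before the start. Tnfrsf1b held 12 CpG, 2 Sp1 matches at 67 and 57 bases and a PU.1 core at 208 bases. Tnfrsf23 and Tnfrsf13b held 8 CpG each, with 1 Sp1 match in Tnfrsf23 and no match in Tnfrsf13b. Over all 32851 windows the median was 6 CpG, and 32.7% held the Sp1 motif, 23.3% the PU.1 core, 6.75% the AP-1 motif and 7.25% the NF-kappaB consensus. Over the 34 windows of members (some genes have more than 1), 15, 12, 6 and 4 held them, respectively. No match to the NF-kappaB consensus or the AP-1 motif was in the windows of the 5 receptors called higher, which says only that these letters were not within these 250 bases.

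The receptors for TNF itself come in a pair. Tnfrsf1a (TNFR1) carries a death domain and is made by most cells, while Tnfrsf1b (TNFR2) has none and is made chiefly by immune and endothelial cells. Tnfrsf1b was read at 60.7, 50.5, 74.1 and 78.4 normalized counts in WT replicates 1 to 4, and at 320.5, 268.9, 226.9 and 579.3 in mdx5cv replicates 1 to 4. The groups did not overlap, and mdx5cv replicate 4 stood highest. The difference was 2.31 on the log2 scale, or 4.96-fold (SE 0.25, adjusted p = 1.47e-05). Tnfrsf1a was read at 97.4, 106.4, 127.1 and 127.1 in WT and at 189.0, 185.8, 177.4 and 264.5 in mdx5cv. These groups did not overlap either, but the log2 difference of 0.82 (SE 0.15, adjusted p = 0.00100) stayed under the fold threshold.

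The 2 receptors differed in how far they rose. The log2 ratio of Tnfrsf1b over Tnfrsf1a was -0.67, -1.06, -0.77 and -0.69 in the WT muscles and 0.76, 0.53, 0.35 and 1.13 in the mdx5cv muscles. It was below 0 in every WT muscle and above 0 in every mdx5cv muscle, a difference of 1.49 (exact two-sided permutation test, p = 0.0286, the smallest that 4 against 4 muscles can give, and 0.0381 after Benjamini-Hochberg adjustment over the 4 ratios tested). The ratio is of normalized counts + 1, so it depends only slightly on the scaling of the library. It is not corrected for the length of either gene, so only its change between groups is read. Tnfrsf1b lies on chromosome 4, 20.3 kb from Tnfrsf8, the receptor CD30, which had 9 reads in all of WT and 13 in all of mdx5cv.

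Tnfrsf11a encodes RANK, the receptor through which RANKL drives osteoclast formation and which macrophage-lineage cells also carry. It had the largest fold change of the tested members. The WT muscles gave 6.88, 8.78, 21.01 and 21.19 normalized counts, and the mdx5cv muscles 101.9, 95.3, 61.2 and 155.8. The lowest mdx5cv muscle stood well above the highest WT muscle, and the WT replicates fell into a lower and a higher pair. The difference was 2.83 on the log2 scale, or 7.12-fold (SE 0.36, adjusted p = 6.19e-05). Its ligand RANKL (Tnfsf11) had 1, 2, 0 and 0 reads in WT and 0, 1, 2 and 5 in mdx5cv. Its decoy osteoprotegerin (Tnfrsf11b), which binds RANKL and keeps it from RANK, had 5, 4, 1 and 2 reads in WT and 3, 3, 11 and 10 in mdx5cv. Neither reached the minimum for a test, so a ratio of decoy to receptor was not tested.

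Macrophage markers moved with these receptors. Of 8 markers, 7 were called higher in mdx5cv, against 10.3% of all genes. The other, Cd163, a scavenger receptor of resident macrophages, was called lower (log2 fold change -1.49), against 3.27% of all genes. Itgam and Trem2 reached the minimum for a test only through mdx5cv (means of 3.88 and 4.35 normalized counts in WT). The 8 markers summed to 544 to 852 normalized counts in WT and 3696 to 8904 in mdx5cv. This sum was highest in mdx5cv replicate 4 and lowest among the mdx5cv muscles in replicate 3. The same 2 muscles were the highest and the lowest of mdx5cv for Tnfrsf11a and Tnfrsf1b. In whole muscle, more cells of a type and more RNA per cell cannot be told apart, and the part of macrophage content in these results was not tested. Over the 7 receptors called higher, mdx5cv replicate 4 was the highest muscle in 5, and it was the highest in 83.6% of the 1414 genes called higher. Replicate 3 was the lowest mdx5cv muscle in 4 of the 7, and in 45.5% of the 1414 genes. Tnfrsf23 and Cd40 were lowest in mdx5cv replicate 1 and Tnfrsf22 in replicate 2.

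**Figure D2:**
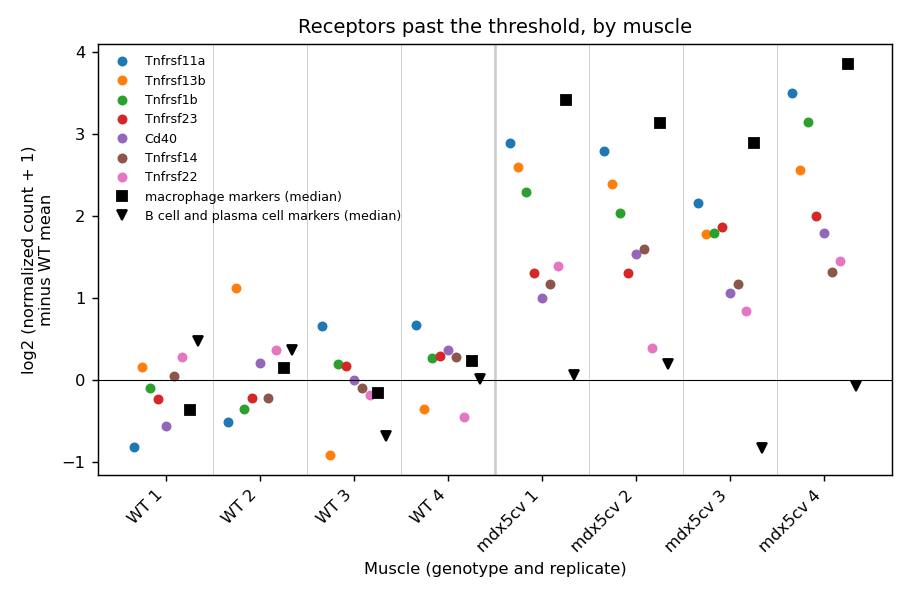
Log2 of the normalized count + 1 minus the WT mean (y axis) in each muscle (x axis) for the 7 receptors called higher (coloured points), with the median over 8 macrophage markers (squares) and over 6 B cell and plasma cell markers (triangles). Every coloured point lies higher in the mdx5cv muscles than any WT point of the same gene, the squares rise likewise, and the triangles lie in the same range in both groups.

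Tnfrsf13b, Cd40 and Tnfrsf14 are receptors best known from lymphocytes and the cells that present antigen to them. Tnfrsf13b encodes TACI, a receptor for BAFF and APRIL on B cells, plasma cells and some myeloid cells. It had 3.44, 7.68, 1.11 and 2.12 normalized counts in WT and 23.2, 19.8, 12.6 and 22.4 in mdx5cv. The WT values rest on 1 to 7 reads a muscle, the groups did not overlap, and the log2 difference was 2.33 (SE 0.46, adjusted p = 0.00142). Markers of B cells and plasma cells did not separate the groups. They summed to 6.63 to 24.1 normalized counts in WT and 15.7 to 24.0 in mdx5cv, and none of the 6 reached the minimum. The other receptors for these ligands were close to 0, with Tnfrsf13c (BAFF receptor) at 1 read in all of WT and 2 in all of mdx5cv, and Tnfrsf17 (BCMA) at 3 and 0.

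Cd40, which antigen-presenting cells use to receive help from T cells, was read at 3.44, 6.58, 5.53 and 7.42 in WT and at 12.0, 17.9, 12.6 and 21.6 in mdx5cv. All mdx5cv muscles lay above all WT muscles (log2 fold change 1.34, SE 0.36, adjusted p = 0.00922). Its ligand Cd40lg had 0 reads in every WT muscle and 1, 0, 0 and 1 in mdx5cv. Tnfrsf14 encodes HVEM, which binds LIGHT (Tnfsf14) and lymphotoxin alpha and also BTLA on lymphocytes. It was read at 16.0, 13.2, 14.4 and 19.1 in WT and at 36.1, 49.1, 36.0 and 40.0 in mdx5cv. These mdx5cv values lay close together, with replicate 2 and not replicate 4 the highest (log2 fold change 1.31, SE 0.22, adjusted p = 0.000477). LIGHT had 1 read in all of WT and 8 in all of mdx5cv.

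Tnfrsf22 and Tnfrsf23 encode decoy receptors of mice that bind TRAIL (Tnfsf10) without a working death domain. They lie with Tnfrsf26 in a row on chromosome 7, where Tnfrsf22 is 6.08 kb from Tnfrsf26 and 16.1 kb from Tnfrsf23. Tnfrsf23 was read at 24.1, 24.1, 32.1 and 34.96 in WT and at 71.3, 71.7, 106.3 and 116.7 in mdx5cv. The groups were far apart (log2 fold change 1.62, SE 0.21, adjusted p = 8.19e-05). Tnfrsf22 was read at 21.8, 23.0, 15.5 and 12.7 in WT and at 48.2, 23.6, 32.4 and 50.3 in mdx5cv. Its lowest mdx5cv muscle, replicate 2, barely exceeded the highest WT muscle, and the log2 fold change of 1.02 (SE 0.29, adjusted p = 0.0130) lay just past the fold threshold. Without WT replicate 3, WT replicate 4, mdx5cv replicate 1 or mdx5cv replicate 4, this fold change was 0.95, 0.87, 0.89 or 0.87 and the call was lost on size, with an adjusted p of at most 0.0475 over all alternatives. Of the 50-base words of their transcripts, 719 are shared, which is 17.3% of Tnfrsf22 and 18.0% of Tnfrsf23, so reads could be split between the 2 genes and their separate values are uncertain. Tnfrsf26, the third gene of the row, had 19 reads in all of WT and 43 in all of mdx5cv, of which 21 were in mdx5cv replicate 4.

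Tnfrsf10b, the mouse death receptor for TRAIL, did not pass the test. It was read at 21.8, 16.5, 13.3 and 16.9 in WT and at 19.5, 25.5, 18.0 and 32.8 in mdx5cv, and the groups overlapped (log2 fold change 0.44, SE 0.27, adjusted p = 0.208). TRAIL itself, the tested ligand with the most counts, was read at 102.0, 102.0, 86.2 and 104.9 in WT and at 60.2, 99.1, 78.3 and 59.1 in mdx5cv. WT replicate 3 lay below mdx5cv replicate 2, so the groups overlapped, and the log2 fold change of -0.44 (SE 0.18, adjusted p = 0.0651) missed the threshold. The log2 ratio of Tnfrsf10b over Tnfsf10 was -2.18, -2.56, -2.61 and -2.56 in WT and -1.58, -1.92, -2.06 and -0.83 in mdx5cv. The groups did not overlap, and the difference was 0.88 (exact permutation p = 0.0286, adjusted 0.0381), or 0.62 without mdx5cv replicate 4.

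Of the other receptors with a death domain, Fas was read at 26.4, 49.4, 63.0 and 36.0 in WT and at 33.4, 43.4, 23.4 and 32.0 in mdx5cv (log2 fold change -0.35, SE 0.27, adjusted p = 0.328). Its ligand Fasl, made by cytotoxic lymphocytes, had 0 reads in all 4 WT muscles and 2, 1, 1 and 3 in mdx5cv. Against the 3 reads that a count of 0 over the WT group allows, the 7 reads of mdx5cv are 1.88-fold higher after scaling. This leaves out the counting error of the 7 reads, so it is not a lower bound. The log2 ratio of Fas over Tnfrsf1a, 2 receptors of the same domain type, went from -1.43 ± 0.45 in WT to -2.60 ± 0.42 in mdx5cv (SD, n = 4 each), a difference of -1.17 with no overlap (exact permutation p = 0.0286, adjusted 0.0381). Tnfrsf25 (DR3, the receptor of Tnfsf15) lay at 12.6 to 19.9 in WT and 16.98 to 30.6 in mdx5cv (log2 fold change 0.58, SE 0.28, adjusted p = 0.123). Tnfrsf21 (DR6) was read at 324.3, 330.2, 329.5 and 323.1 in WT and at 291.8, 304.7, 292.7 and 279.7 in mdx5cv. It varied little within each group and the groups did not overlap, with a small difference that did not pass (log2 fold change -0.16, SE 0.10, adjusted p = 0.196).

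**Figure D3:**
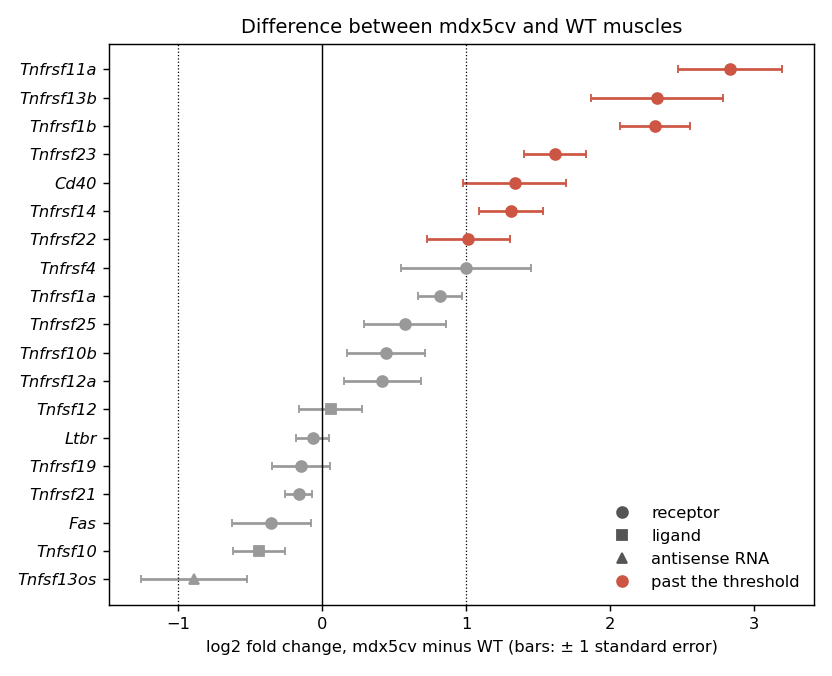
Log2 fold change of mdx5cv over WT (x axis, bars ± 1 SE) for the 19 tested members (y axis), with dotted lines at -1 and 1. The 7 red points are the receptors past both thresholds, from 2.83 in Tnfrsf11a to 1.02 in Tnfrsf22, and the 2 ligands (squares) lie at 0.06 and -0.44.

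TWEAK (Tnfsf12) and its receptor Fn14 (Tnfrsf12a) are the pair of the family most often studied in muscle, where Fn14 is induced by injury. Tnfrsf12a was read at 55.0, 58.1, 44.2 and 120.8 in WT and at 71.3, 78.3, 84.6 and 117.5 in mdx5cv. WT replicates 1 to 3 lay below every mdx5cv muscle and replicate 4 above them all, so that the log2 fold change of 0.42 (SE 0.27) had an adjusted p of 0.234. Without WT replicate 4 it was 0.72 with an adjusted p of 0.0136, still under the fold threshold, and the adjusted p ran from 0.0136 to 0.524 over all alternatives. Markers of regenerating fibers summed to 118 to 143 normalized counts in WT and 2175 to 8502 in mdx5cv, with all 6 called higher, against 10.3% of all genes. Mymk, Mymx and Chrng reached the minimum for a test only through mdx5cv (means of 0.26, 0 and 0.26 normalized counts in WT). The sum of the 6 markers in WT replicate 4 was 138, within the WT range. The median of their log2 deviations from the WT mean was highest in that muscle, at 0.19 against -0.22 to -0.01 in the other WT muscles. Single reads raised this median, since Mymk and Chrng each had 1 read in that muscle and 0 in the other WT muscles. Among the WT muscles, replicate 4 was highest for Myh3 (48.7 normalized counts), within the range of the others for Myog (42.4) and lowest for Myh8 (44.5). The part of regeneration in the Tnfrsf12a value of WT replicate 4 was not tested. Tnfsf12 was read at 33.2, 34.004, 29.9 and 21.2 in WT and at 29.6, 28.3, 28.8 and 35.2 in mdx5cv (log2 fold change 0.06, SE 0.22, adjusted p = 0.849). The log2 ratio of Tnfrsf12a over Tnfsf12 differed by 0.36 (exact permutation p = 0.543), or by 0.80 without WT replicate 4. Tnfsf12 lies at chr11:69686250-69695849, where it shares 48.3% of its exon bases with the readthrough gene Tnfsfm13, so reads of both could be left out or split in counting.

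The 3 receptors with the most counts in WT were Tnfrsf21, Tnfrsf19 and Ltbr, and none of them was called. Ltbr, the lymphotoxin beta receptor, was read at 184.5, 205.1, 194.6 and 211.9 in WT and at 168.6, 193.4, 189.1 and 211.8 in mdx5cv (log2 fold change -0.06, SE 0.12, adjusted p = 0.687). Tnfrsf19 (TROY) was read at 207.4, 265.4, 246.6 and 193.9 in WT and at 178.8, 306.6, 222.4 and 143.8 in mdx5cv (log2 fold change -0.15, SE 0.20, adjusted p = 0.589). The mdx5cv muscles spread around the WT values, with replicate 2 above and replicates 1 and 4 below all of them. With libraries scaled to equal totals, which moves the median of all log2 fold changes from 0.00 to 0.36, Ltbr, Tnfrsf19 and Tnfrsf21 came to 0.29, 0.21 and 0.20, so no direction is read for them. Ltbr lies 35.5 kb from Tnfrsf1a on chromosome 6. Tnfrsf4 (OX40), a receptor of activated T cells, lay at 10.3, 2.19, 13.3 and 5.30 in WT and 15.7, 11.3, 17.1 and 12.8 in mdx5cv (log2 fold change 0.997, SE 0.45, adjusted p = 0.0947), and passed both thresholds without WT replicate 3 (1.30, adjusted p = 0.0431) and with equal totals (1.32, adjusted p = 0.0283), its adjusted p running to 0.236 over the alternatives.

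Divided by the exon length of each gene, the order of the members differed between the groups. In WT, Ltbr stood first at 84.5 ± 5.10 normalized counts per kb and Tnfrsf21 second at 79.5 ± 0.87 (SD, n = 4). Tnfrsf19 (48.2 ± 7.04), Tnfrsf1a (44.2 ± 5.80) and Tnfrsf12a (36.0 ± 17.9) followed. The first and second did not differ beyond their spread, nor did the other 3 among themselves, but Tnfrsf21 and Tnfrsf19 did. Tnfrsf1b stood at 17.3 ± 3.34 per kb and rank 9 of 40 in WT, and at 91.4 ± 41.5 per kb and rank 1 in mdx5cv. In mdx5cv it was followed by Ltbr (81.0 ± 7.52), Tnfrsf1a (78.8 ± 15.6) and Tnfrsf21 (71.1 ± 2.49), and no neighbours among these 4 differed beyond their spread. Tnfrsf11a went from 2.42 ± 1.29 per kb and rank 18 to 17.3 ± 6.54 and rank 10. Of the 7 receptors called higher, the lowest per kb was Tnfrsf13b in WT (1.264 ± 1.019, rank 22) and Cd40 in mdx5cv (4.71 ± 1.33, rank 19).

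Most ligands were at the edge of detection. The 14 ligands under the minimum together held 25, 22, 15 and 11 reads in the WT muscles and 39, 45, 48 and 75 in the mdx5cv muscles, while the 16 tested receptors held 939 to 1157 reads in WT and 1714 to 2640 in mdx5cv. Tnf itself had 0, 4, 0 and 0 reads in WT and 5, 10, 3 and 12 in mdx5cv. All WT reads of Tnf came from replicate 2, which stood above the lowest mdx5cv muscle. Tnfsf13b (BAFF), a survival factor for B cells made by myeloid cells, had 8, 2, 3 and 7 reads in WT and 9, 13, 11 and 29 in mdx5cv. Tnfsf13 (APRIL) had 11, 6, 6 and 1 in WT and 10, 11, 13 and 12 in mdx5cv. It shares 60.05% of its exon bases with Tnfsfm13 and 13.5% with Tnfsf13os on the other strand.

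Tnfsf8 (the CD30 ligand) had 4 reads in all of WT and 15 in all of mdx5cv, Ltb 7 and 9, Tnfsf15 6 and 11, and Tnfsf9 4 and 5. Tnfsf4 and Tnfsf18 had 1 read each and Lta 2, all in mdx5cv, and 0 in WT. Tnf, Lta and Ltb are neighbours on chromosome 17, with gaps of 1.16 kb and 3.06 kb, and only Tnf among them had more than 4 reads in any muscle. Of the low receptors not yet given, Tnfrsf9, a receptor of activated T cells, had 5 reads in all of WT and 12 in all of mdx5cv, and Tnfrsf18 (GITR) had 3 and 8. A fit without the minimum, over 28501 genes, called Tnf (log2 fold change 2.18, adjusted p = 0.0107) and Fasl (adjusted p = 0.0131) higher and none of the other 19 low members. Of all 28501 genes, that fit called 2202 higher and 642 lower. The Fasl call rests on 0 reads in WT and 7 in mdx5cv. T cell markers summed to 3.18 to 8.78 normalized counts in WT and 25.9 to 48.7 in mdx5cv, with Cd3e and Cd8a at 0 in every WT muscle, and NK cell markers to 0 in WT and 4.63 to 16.8 in mdx5cv. The part of these cells in the reads of the ligands was not tested.

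**Figure D4:**
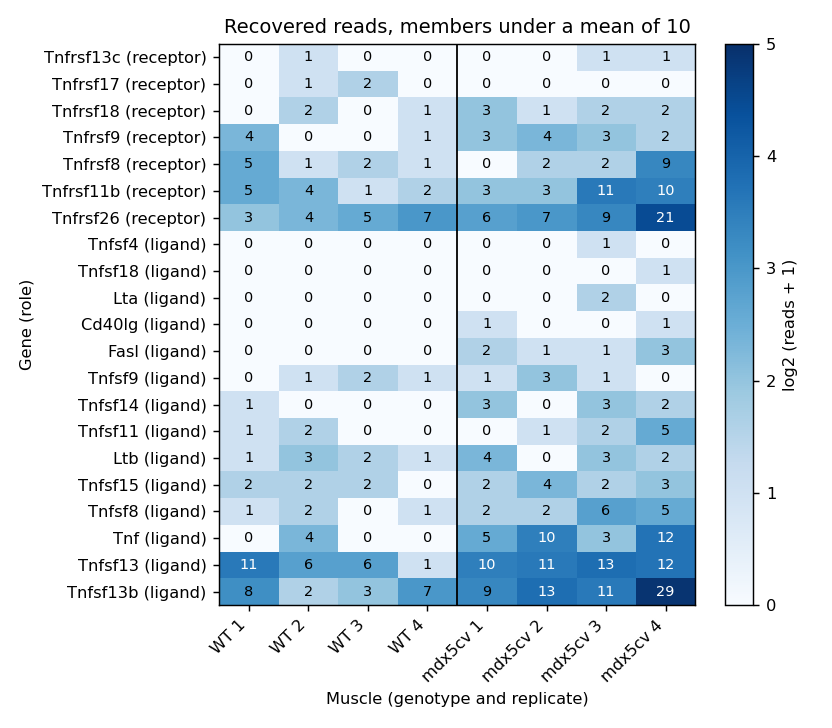
Reads in each muscle (numbers in the cells, colour as log2 of reads + 1) for the 21 members under a mean of 10 normalized counts, receptors above and ligands below. The mdx5cv columns to the right of the line hold most reads of Tnf (30 against 4 in WT), Tnfsf13b (62 against 20) and Fasl (7 against 0), and no WT muscle reached 12 reads of any of these genes.

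Tnfsf13os, the antisense RNA, ran the other way from the receptors. It was read at 12.6, 11.0, 11.1 and 20.1 in WT and at 8.34, 9.43, 6.30 and 3.995 in mdx5cv. The groups did not overlap, and the log2 fold change of -0.89 (SE 0.37, adjusted p = 0.0692) did not pass. It lies at chr11:69682138-69691141 on the plus strand, opposite Tnfsf13 and Tnfsf12, and shares 22.8% of its exon bases with genes of the other strand. The library kit keeps the strand, but whether the counting used it is not given in the sources used here, so reads of the overlap may belong to either gene.

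Markers of other cell types were read beside the members. Dendritic cell markers summed to 6.88 to 19.7 normalized counts in WT and 28.8 to 61.5 in mdx5cv. Neutrophil markers summed to 2.12 to 7.68 and 1.85 to 6.39, and satellite cell markers to 201 to 271 and 241 to 495. Regulatory T cell markers summed to 371 to 462 and 231 to 318, nearly all of it Ikzf2 (413.9 ± 40.8 and 262.0 ± 31.2), while Foxp3, which defines these cells, was at 0.82 ± 0.54 and 5.14 ± 2.40, with no overlap and too low for a test. Of the fibroblast and fibro-adipogenic progenitor markers, 2 of 5, the collagens Col1a1 and Col3a1, were called higher, against 10.3% of all genes. Pdgfra was higher on the adjusted p alone (log2 fold change 0.63), and Dcn (-0.24) and Ly6a (-0.30) did not pass. The 5 summed to 5125 to 7741 in WT and 17154 to 30728 in mdx5cv, where most of the sum was the 2 collagens. The 5 endothelial markers were all lower on the adjusted p alone, as were 20.1% of all genes (median log2 fold change -0.73, sums of 2891 to 3438 and 1705 to 2161), while Tnfrsf1b, which endothelial cells also make, was higher. With equal totals Cdh5 (-0.26, adjusted p = 0.0985) and Kdr (-0.30, adjusted p = 0.104) no longer passed. The part of these cell types in the members' values was not tested.

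Family genes with symbols of another kind went in both directions, with a median log2 fold change of 0.24. Of 5 tested, 1 was called higher and 1 lower, against 10.3% and 3.27% of all genes. Ngfr, the low-affinity neurotrophin receptor, was called higher (14.0 ± 3.57 and 35.5 ± 9.02 normalized counts, log2 fold change 1.27, SE 0.27). Cd27, the receptor of Cd70 on T and B cells, was called lower (22.1 ± 4.66 and 6.25 ± 0.93, -1.66, SE 0.30), and it reached the minimum only through WT. Cd27 had 28.7, 19.7, 22.1 and 18.0 in WT and 5.56, 7.55, 6.30 and 5.59 in mdx5cv, so it fell while the T cell markers were read more often. Eda2r, the receptor of ectodysplasin A2, was higher on the adjusted p alone (161.8 ± 52.4 and 289.1 ± 8.80, 0.89, adjusted p = 0.0019), and Relt was lower (185.6 ± 39.6 and 111.4 ± 16.6, -0.72, adjusted p = 0.0035), though not with equal totals (-0.37, adjusted p = 0.138). Cd70 had no read in any muscle.

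The ligands are released by proteases, and of the 6 genes of ligand processing none was called in either direction by limma, edgeR or DESeq2. On the adjusted p alone, 4 were higher and 1 lower, against 20.9% and 20.1% of all genes (median log2 fold change 0.52). The same numbers passed at an unadjusted p under 0.05. Adam17, the protease that frees TNF, was at 253.9 ± 3.74 in WT and 357.3 ± 43.8 in mdx5cv (log2 fold change 0.48, SE 0.11, adjusted p = 0.0037). Furin, which cuts BAFF, APRIL and TWEAK, was at 377.9 ± 89.2 and 548.4 ± 52.8 (0.56, SE 0.16, adjusted p = 0.0125). Timp3, an inhibitor of Adam17, was the lower one, at 1782 ± 194 and 958 ± 46.6 (-0.89, SE 0.10).

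Of 13 receptor adaptors and death signaling genes, 3 were called higher and none lower, against 10.3% and 3.27% of all genes, with a median log2 fold change of 0.49. On the adjusted p alone, 6 were higher and 1 lower, against 20.9% and 20.1%, and the lower one, Traf6 (-0.44), no longer passed with equal totals (-0.09, adjusted p = 0.581). Traf1, an adaptor that binds TNFR2 and is itself induced by NF-kappaB, was read at 12.6, 4.39, 6.63 and 5.30 in WT and at 31.5, 35.8, 44.1 and 61.5 in mdx5cv (log2 fold change 2.48, SE 0.34). Traf4 (1.12, SE 0.23) and Casp8, the caspase at death receptors (1.03, SE 0.25), followed. Without mdx5cv replicate 4 only Traf1 of the 13 was called. The 2 genes of the list with the most counts, Cflar, an inhibitor of caspase-8 (470.7 ± 30.7 and 529.7 ± 41.8), and Birc2 (369.0 ± 75.9 and 298.6 ± 21.3), did not pass.

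In the NF-kappaB cascade, 2 of 16 genes were called higher and none lower, a share near the 10.3% of all genes, with a median log2 fold change of 0.36. Nfkb2, the p100 subunit of the noncanonical pathway that CD40, RANK and the lymphotoxin beta receptor use, was read at 66.5, 99.8, 84.0 and 79.4 in WT and at 192.7, 218.9, 204.4 and 298.9 in mdx5cv (log2 fold change 1.45, SE 0.17). Nfkbie, an inhibitor of NF-kappaB, rose from 4.36 ± 2.80 to 45.1 ± 25.7 (3.09, SE 0.42), with mdx5cv replicate 4 at 83.1 and the other mdx5cv muscles at 27.9 to 37.7. On the adjusted p alone, 7 were higher and 1, Map3k7 (TAK1), was lower, against 20.9% and 20.1% of all genes. Map3k7 (996.4 ± 49.2 and 693.7 ± 69.4, -0.53, SE 0.10) no longer passed with equal totals (-0.17, adjusted p = 0.211). Besides Nfkb2 and Nfkbie, those higher were Relb (0.67, SE 0.18) and Map3k14 (NIK, 0.87, SE 0.19) of the noncanonical branch. The rest were Rel (0.74, SE 0.20), Tnfaip3 (0.69, SE 0.17) and Tnip1 (0.47, SE 0.17), so the rises were not confined to that branch. Cyld, which had the second most counts of this list, did not pass (-0.06, SE 0.10).

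Of 15 genes known as NF-kappaB targets, 10 were tested, with a median log2 fold change of 1.27. Against 10.3% and 3.27% of all genes, 5 were called higher and none lower. These were Cxcl10 (3.26, SE 0.51) and Ccl2 (2.93, SE 0.53), chemokines for T cells and monocytes, the adhesion molecules Icam1 (2.04, SE 0.26) and Vcam1 (1.57, SE 0.23), and Bcl3 (2.17, SE 0.38), a nuclear member of the inhibitor family. For each of the 5, every mdx5cv muscle lay above every WT muscle, as was so for 20.3% of all genes. The target with the most counts, Sod2, the mitochondrial superoxide dismutase, was lower on the adjusted p (3873 ± 289 and 2287 ± 497, -0.79, SE 0.15), and Tnfaip2 was higher on it (648.2 ± 242.7 and 1040 ± 213, 0.74, SE 0.23, adjusted p = 0.0205). Cxcl10, Ccl2 and Bcl3, like Traf1 and Nfkbie in the other lists, reached the minimum only through mdx5cv. Of the 5 targets not tested, Il6, Sele and Cxcl1 were low in both groups, while Ccl5, a T cell chemokine (listed at 0 in every WT muscle and at 4.502 to 8.490 in mdx5cv), and Bcl2a1b, a survival gene of myeloid cells (0.57 ± 1.15 and 8.85 ± 4.47), were called higher in the fit without the minimum. Over all 5 pathway lists, 11 of 50 tested genes were called higher and 1 lower, against 10.3% and 3.27% of all genes. In the adaptor, cascade and target lists, where none was called lower by limma, edgeR or DESeq2, 1 gene each was lower at an unadjusted p under 0.05.

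**Figure D5:**
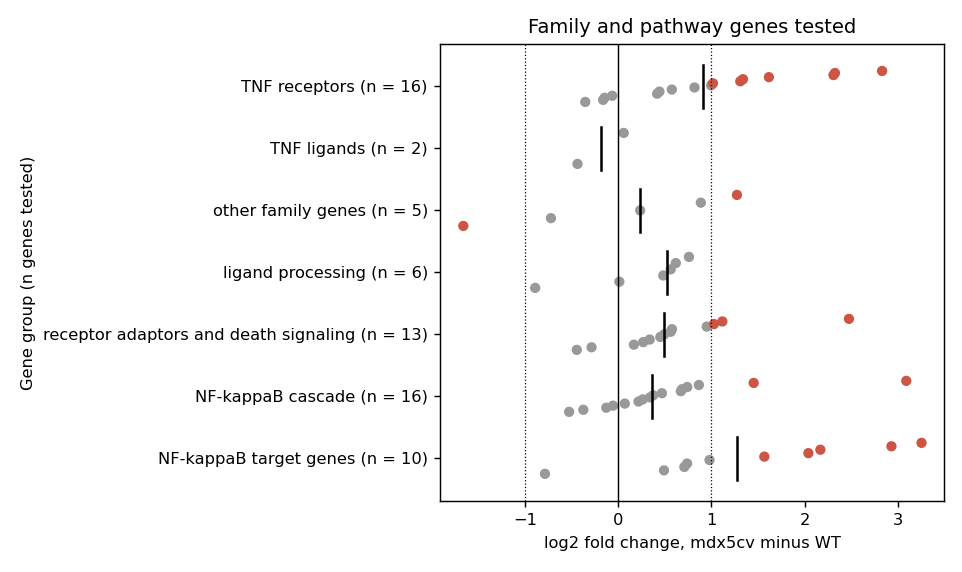
Log2 fold change of mdx5cv over WT (x axis) of each tested gene in the TNF receptors, the TNF ligands and 5 pathway lists (y axis, n tested genes), with red points past both thresholds, a black bar at the median and dotted lines at -1 and 1. Medians run from -0.19 in the 2 ligands to 1.27 in the NF-kappaB target genes, with 0.91 in the 16 receptors.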

How the data were processed

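RNA was taken from whole TA muscles with Trizol, and libraries were made with the TruSeq Stranded Total RNA H/M/R kit. Per the submitters' processing notes, the tools were FastQC, Trim Galore 0.6.4, STAR 2.6.0c, SAMtools 1.9, featureCounts, MultiQC 1.6, DESeq2 1.26.0 and R 3.6.2, with the mm10 build. The gene annotation is not given in the sources used here, and 55141 of the 55401 identifiers were found in GENCODE M21, from which positions and exon lengths were taken. The deposited signal values are read counts per gene that the authors divided by a size factor for each library. Dividing by the value of 1 read gave whole reads for 100% of values (tolerance 0.01).

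Members and gene lists were chosen with earlier results of these data known. The members were the symbols of the rule, values in every muscle were given for those called or discussed, and of each pathway list the genes called and the 2 with the most counts were named, with others named after their values were seen. Genes with a mean of at least 10 normalized counts (13677) were tested with limma 3.58.1 (R 4.3.3, variance trend) on log2 of the normalized count + 1, a scale that understates the change of low genes, with Benjamini-Hochberg adjustment over all of them. A gene was called at an adjusted p under 0.05 and a log2 fold change of at least 1 in size. On the recovered reads, edgeR 4.0.16 called 1457 genes higher and 455 lower, and DESeq2 1.42.0 called 1461 and 453. The scripts were tested on simulated data. Replicates of a group differed by more than sampling noise (chi-square per degree of freedom 8.59 to 38.4). Intervals and floors cover counting error only, and the floor for Fasl covers that of the WT count only. Alternatives were other pseudocounts (0.1 and 10), filters, scalings, a replicate block and leaving out each muscle.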

Additional observations from a re-analysis of the deposited data

Results flagged for a closer look

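The lowest or highest muscle of a group stood apart from the other 3 by Dixon's test at the 95% level in 4 of the 46 sets of 4 values examined, where chance gives about 2.3. Tnfrsf1a was highest in mdx5cv replicate 4, at 8.05 on the log2 (normalized count + 1) scale against 7.48 to 7.57 in the other mdx5cv muscles. Tnfsf10 was lowest in WT replicate 3, at 6.45 against 6.69 to 6.73 in the other WT muscles. The log2 ratio of Tnfrsf12a over Tnfsf12 was highest in WT replicate 4, at 2.46 against 0.55 to 0.76. The log2 ratio of Tnfrsf10b over Tnfsf10 was highest in WT replicate 1, at -2.18 against -2.61 to -2.56.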

How the results depend on the processing

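No result changed direction past its threshold. The count of members called higher, 7, fell to 4 with a pseudocount of 10 (Tnfrsf11a, Tnfrsf13b, Tnfrsf1b and Tnfrsf23) and to 4 with at least 10 normalized counts in every muscle (Tnfrsf14, Tnfrsf1b, Tnfrsf22 and Tnfrsf23), a filter that removes genes near 0 in WT. It was 9 with no filter and 9 with equal totals, where Tnfrsf4 and Tnfrsf1a were added. The pathway count of 11 higher became 6 with at least 10 in every muscle and 21 with equal totals, and the 1 lower became 0 with a pseudocount of 10 and 0 with at least 10 in every muscle. Leaving out 1 muscle at a time gave 6 to 7 members higher and 0 lower, and 9 to 13 pathway genes higher and 1 lower. The ratio differences ran from 1.35 to 1.61 for Tnfrsf1b over Tnfrsf1a, 0.62 to 1.03 for Tnfrsf10b over Tnfsf10, -1.35 to -1.03 for Fas over Tnfrsf1a and 0.17 to 0.80 for Tnfrsf12a over Tnfsf12. Over all genes, 1414 were called higher and 447 lower (76.0% of calls higher), 729 and 275 with at least 10 in every muscle, 2202 and 642 with no filter, and 2256 and 210 with equal totals (91.5% higher). Whether the replicate numbers pair the muscles could not be told, since correlations between 4 muscles a group are too few and small to settle it. The deviations of same-numbered muscles correlated at 0.05, 0.03, 0.07 and 0.15, and those of differently numbered muscles at -0.15 to 0.07. Not every muscle correlated best with its own number. With the replicate number as a block, 7 members and 11 pathway genes were called higher, 0 and 1 lower. A block cannot change the ratio differences in this balanced design. Ligands with fewer than 10 reads in a muscle are limited by depth.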
